A study of Mus musculus with 18 samples.

Results

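The genes of the mouse carotid artery that had not come back to their level before injury 28 days after a wire injury were sought by setting 3 libraries of day 28 against 4 libraries of day 0. These are 7 of the 18 libraries of the series, chosen by the day on their labels, and all 35655 genes of the count table entered the comparison. Of these, 10312 passed a filter on low counts and were tested. RNA was read at the 3′ ends of transcripts by MACE, a method in which each molecule gives 1 tag near its polyadenylated end and copies made by PCR are removed by molecular identifiers. All mice were C57/BL6 wild type, labelled WT, and per the study's methods male, 11 weeks old at surgery and fed chow. On day 28 the labels give the treatment as injury and on day 0 as pre-injury. A wire was passed through the left carotid artery, and the right one served as control in the study. Whether the day 0 vessels were such right carotids of injured mice is not stated, although 3 of the 4 day 0 libraries carry the number, read here as that of the mouse, of a day 21 library. Tissue with the outer elastic lamina and the neointima was cut from stained frozen sections by laser, and RNA of up to 70 sections was pooled for a library. A neointima forms after injury, and the study's methods do not describe separately what was cut on day 0. The layers in the excised area may thus differ between the days. A level is therefore that of all cells in the excised area. In such tissue, more cells of a type and more RNA per cell cannot be told apart.

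Wire injury strips the endothelium and stretches the media. In the following weeks leukocytes enter the wall, smooth muscle cells lower their contractile genes, divide and migrate, and a neointima rich in matrix builds up on the luminal side. Smooth muscle cells can later regain contractile genes, the endothelium can regrow and inflammatory cells can leave, so the late artery may keep some of these changes and lose others.

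On day 28, 138 genes differed from day 0 at an adjusted p under 0.05 (edgeR quasi-likelihood test, Benjamini-Hochberg adjustment over 10312 genes), which is 1.34% of the genes tested. Of these, 100 were higher (0.97%) and 38 were lower (0.369%). The median log2 change was 2.73 for the higher genes and -2.35 for the lower ones, against -0.01 over everything tested. The 3 day 28 libraries lay above all 4 day 0 libraries for 86 of the 100 higher genes and below them for all 38 lower genes. Over all genes tested, 4.88% lay wholly above and 5.07% wholly below. An unadjusted p under 0.05 in edgeR was found for 1521 of the 10312 genes, beside which such counts for gene lists should be read. A gene without a call was not thereby back at its first level. The 95% interval of the log2 fold change lay between -1 and 1, within 2-fold of day 0, for 1578 genes or 15.3%. For 8596 genes, 83.4% of those tested, neither statement could be made, and 42 genes had no interval.

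The libraries of days 0 and 28 held 555142 to 869924 counts and 10674 to 12350 genes with a count. These are shallow libraries, and the biological coefficient of variation over all days was 0.449, so that many genes with moderate changes would go without a call. The day 28 libraries differed more among themselves than the day 0 libraries did. Levels are given as CPM, the count of a gene scaled to a common library size. The correlation of log2 CPM over genes was 0.705 to 0.773 between day 28 libraries and 0.781 to 0.890 between day 0 libraries. The lowest of these values, 0.705, was that of day 28 replicates 2 and 3, which correlated at 0.706 to 0.746 with the day 0 libraries. Day 28 replicate 1 was closer to day 0, with correlations of 0.800 to 0.859 to the day 0 libraries and of 0.763 to 0.773 to the other day 28 libraries. Its heat shock genes summed to 14819 CPM, above the range of 5143 to 9487 CPM on day 0. In day 28 replicates 2 and 3 they summed to 3442 and 3157 CPM, below that range. Without day 28 replicate 1, 123 of the 138 genes were called again, but the number of calls rose to 480, of which 192 were higher and 288 lower. The predominance of higher genes thus depended on this library. Fewer of the 138 were called again without day 28 replicate 2 (50) or replicate 3 (59), and 24 in a fit of days 0 and 28 alone. The 7 libraries carry 7 different numbers in their labels, read here as separate mice.

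Genes of macrophages and other leukocytes were among those higher on day 28. Mpeg1, which encodes the pore-forming protein perforin-2 of phagocytes (GRCm39 chr19:12438114-12442649), had no count in any day 0 library and 30.2, 13.2 and 65.5 CPM in the day 28 libraries. It was at least 35.6-fold higher than 3 counts over the 4 day 0 libraries would be (adjusted p = 0.000194). Laptm5, a lysosomal membrane protein of blood cells (chr4:130638161-130663452), stood at 53.6, 10.8, 10.4 and 23.6 CPM on day 0 and at 115, 137 and 128 CPM on day 28. The groups were well apart, and the day 28 libraries lay close together. Laptm5 rose by 2.37 on the log2 scale (SE 0.39, adjusted p = 0.00296). C1qb, a chain of the first complement component, had 38.7, 3.59, 10.4 and 35.4 CPM on day 0 and 132, 129 and 112 CPM on day 28, a log2 change of 2.50 (SE 0.44, adjusted p = 0.00472). Aif1, which encodes the actin-bundling macrophage protein IBA1, went from 0, 2.39, 1.49 and 1.31 CPM to 15.8, 14.9 and 19.2 CPM (log2 change 3.44, SE 0.63, adjusted p = 0.00657). For both genes every day 28 library was higher than every day 0 library. The rule that named C1qb, Aif1, Mpeg1 and Laptm5 required this. Fcer1g, the signalling chain that several Fc receptors share, stood at 2.98, 3.59, 0 and 6.56 CPM on day 0 and 30.2, 38.0 and 46.3 CPM on day 28 (log2 change 3.42, SE 0.63, adjusted p = 0.00657). All 5 genes kept their call in each of 18 fits that left out 1 library. In a fit of days 0 and 28 alone Mpeg1 kept it (adjusted p = 0.0483). Laptm5, C1qb and Aif1 lost it there (adjusted p = 0.0587, 0.0694 and 0.364), and Aif1 also with limma-voom (adjusted p = 0.112). Fcer1g was named after its values were seen, as it fell outside the limit of 4 genes per list.

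These 5 were the members that rose among 26 macrophage genes tested. None fell, 12 lay wholly above day 0 and the median log2 change was 1.70. Summed over the list of 28 genes, the libraries had 435 to 1089.8 CPM on day 0 and 1319.9 to 1839 CPM on day 28, without overlap. The sum was 8586 CPM on day 7 and 3933 CPM on day 21 as a mean over libraries, so the day 28 libraries were nearer to day 0 than to day 7. DESeq2 called 11 members higher and none lower, and 19 of the 26 had an unadjusted p under 0.05 in edgeR. Several classic members had no call by edgeR, of which DESeq2 called Lyz2, C1qa, C1qc and Tyrobp higher, among others. Lyz2, the macrophage lysozyme, stood at 129 ± 94.9 CPM on day 0 (SD, n = 4) and 395 ± 98.6 CPM on day 28 (SD, n = 3; adjusted p = 0.0546). Csf1r, the receptor for macrophage colony-stimulating factor, had 22.8 ± 17.6 and 55.4 ± 8.63 CPM (adjusted p = 0.149). The scavenger receptor gene Cd163 and Lyve1, which are known from resident macrophages of the vessel wall, did not pass the filter on low counts. Cd163 had 11.9, 16.7, 16.4 and 10.5 CPM on day 0 and 4.31, 4.96 and 0 CPM on day 28, and Lyve1 had 10.4, 17.9, 43.2 and 7.87 CPM against 7.18, 0 and 0 CPM. In these libraries both were lower on day 28, in contrast to the members that rose, and no test was run for them.

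Further leukocyte genes were at or near 0 on day 0. Cd300c2, an activating receptor of myeloid cells, had no count on day 0 and 10.1, 39.7 and 28.8 CPM on day 28 (at least 24.9-fold higher, adjusted p = 0.000842). Spn, which encodes the leukocyte surface protein CD43, had no count on day 0 and 5.74, 18.2 and 30.4 CPM on day 28 (at least 17.3-fold higher, adjusted p = 0.00657). Coro1a, an actin regulator of blood cells, rose from 13.4, 5.98, 0 and 5.25 CPM to 47.4, 33.1 and 86.3 CPM (log2 change 3.14, SE 0.53, adjusted p = 0.00383). In these 3 genes the groups did not overlap, which the rule that named them required. Clec2i, a C-type lectin of the natural killer gene complex, had 0, 3.59, 0 and 6.56 CPM on day 0 and 37.3, 56.2 and 28.8 CPM on day 28 (log2 change 3.84, SE 0.70, adjusted p = 0.00657). The Src family kinase Lyn of myeloid cells and the inhibitory receptor Lair1 were likewise higher and were named after their values were seen. Lair1 had no count on day 0 and 17.2, 16.5 and 6.39 CPM on day 28. Lyn had 1 count over the day 0 libraries and 15.8, 33.1 and 1.60 CPM on day 28 (adjusted p = 0.0124). The calls of these genes held in all 18 fits that left out 1 library, except that of Lyn, which had an adjusted p of 0.0967 without day 28 replicate 2. In a fit of days 0 and 28 alone Coro1a and Clec2i lost their calls (adjusted p = 0.124 and 0.134), and Cd300c2 and Spn had no value there. With limma-voom Coro1a lost its call (adjusted p = 0.0613). With limma-voom and the mouse number as a block Spn and Clec2i lost theirs as well (adjusted p = 0.0502 for both). Fyb, an adaptor of T cell and platelet signalling, had no count on day 0 and 38.8, 0 and 17.6 CPM on day 28 (at least 19.3-fold higher, adjusted p = 0.00721). Its groups overlapped, since day 28 replicate 2 held no count.

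Cd74, the invariant chain that escorts MHC class II molecules, had 323, 38.3, 47.7 and 35.4 CPM on day 0 and 602, 896 and 717 CPM on day 28. Day 0 replicate 1 lay above the other 3 day 0 libraries but below every day 28 library. The log2 change was 2.74 (SE 0.51, adjusted p = 0.00721), and the call held in every alternative run. Ciita, the activator that switches on MHC class II genes, had no count on day 0 and 4.31, 61.2 and 0 CPM on day 28 (at least 20.4-fold higher, adjusted p = 0.0326). Its call rested on day 28 replicate 2, with an adjusted p of 0.325 without it. These were the 2 members that rose among 9 tested for MHC class II and antigen presentation, with none lower and a median log2 change of 1.22. The chains H2-Aa and H2-Ab1 had 128, 114 and 136 and 97.7, 119 and 60.7 CPM on day 28. On day 0 they had 165, 7.17, 17.9 and 6.56 and 53.6, 20.3, 0 and 2.62 CPM, again highest in replicate 1, and neither was called (adjusted p = 0.339 and 0.123). The list summed to 59.1 to 692 CPM on day 0, where replicate 1 had 692 and the others 59.1 to 118 CPM, and to 967 to 1224 CPM on day 28.

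Markers of other leukocytes gave no call. Of the neutrophil list 6 members passed the filter, 0 were called (2 at unadjusted p under 0.05, 0 by DESeq2) and 7 of 14 had no count in any of the 7 libraries, Ly6g among them. S100a8 and S100a9, the calprotectin chains, were at 0, 0 and 133 and 0, 1.65 and 144 CPM on day 28, all but wholly from replicate 3. Of T and NK cell genes 3 of 20 passed the filter, of B and plasma cell genes 3 of 13, and 0 of either were called (0 and 2 at unadjusted p under 0.05, 0 and 1 by DESeq2). The absence of a call did not place the B and plasma cell genes back at day 0. All 3 tested had a positive log2 change, and the list summed to 1.49 to 13.2 CPM on day 0 and 16.5 to 68.9 CPM on day 28, low levels without overlap. The sums of the neutrophil list and of the T and NK cell list overlapped between the days. Igkc, the kappa light chain constant region, had no count on day 0 and 41.7, 0 and 3.20 CPM on day 28 (adjusted p = 0.0547). Among 22 chemokines and receptors tested none fell, and Cxcl12, which holds and attracts leukocytes and progenitors, rose. Cxcl12 had 101, 65.7, 68.6 and 66.9 CPM on day 0 and 144, 225 and 246 CPM on day 28 (log2 change 1.44, SE 0.36, adjusted p = 0.0453). The call was close to the threshold. It was lost in 12 of the 18 fits that left out 1 library, with adjusted p up to 0.16 without day 28 replicate 3.

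The stretch upstream of the start site is shown for 3 of the macrophage genes that rose, since the ETS factor PU.1, which macrophage genes need, binds a purine-rich core that holds GAGGAA. The capitals mark this core on either strand within 250 bases upstream of the start (RefSeq, GRCm38.p6, printed on the strand of the gene). The windows are chr4:130913066-130913315 on the plus strand, chr4:136886201-136886450 on the minus strand and chr17:35176053-35176302 on the minus strand.

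Laptm5: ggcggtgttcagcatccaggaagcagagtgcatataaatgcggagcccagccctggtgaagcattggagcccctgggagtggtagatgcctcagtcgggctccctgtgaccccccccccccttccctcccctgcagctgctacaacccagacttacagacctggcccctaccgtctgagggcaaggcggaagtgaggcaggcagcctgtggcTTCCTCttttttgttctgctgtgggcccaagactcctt

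C1qb: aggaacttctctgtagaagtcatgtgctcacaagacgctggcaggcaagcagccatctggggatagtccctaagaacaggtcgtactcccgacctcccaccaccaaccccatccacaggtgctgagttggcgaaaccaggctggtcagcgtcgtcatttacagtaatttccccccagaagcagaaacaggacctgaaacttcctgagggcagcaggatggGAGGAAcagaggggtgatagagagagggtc

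Aif1: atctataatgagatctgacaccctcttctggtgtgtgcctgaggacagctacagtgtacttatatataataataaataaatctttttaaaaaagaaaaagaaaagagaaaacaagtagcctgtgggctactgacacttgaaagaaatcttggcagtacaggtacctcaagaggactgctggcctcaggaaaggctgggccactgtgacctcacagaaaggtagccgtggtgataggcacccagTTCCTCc

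Each window held 1 match, which began 38, 30 and 7 bases upstream of the start site. The windows of Mpeg1 and Fcer1g held none. Of 8168 genes tested that have such a window, 22.6% held the letters on either strand. Among the genes higher on day 28 it was 21 of 66, or 31.8%, and among the lower ones 5 of 35, or 14.3%. A match is a description of these letters, not of a bound site, and a share over so few genes carries no test.

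**Figure D1:**
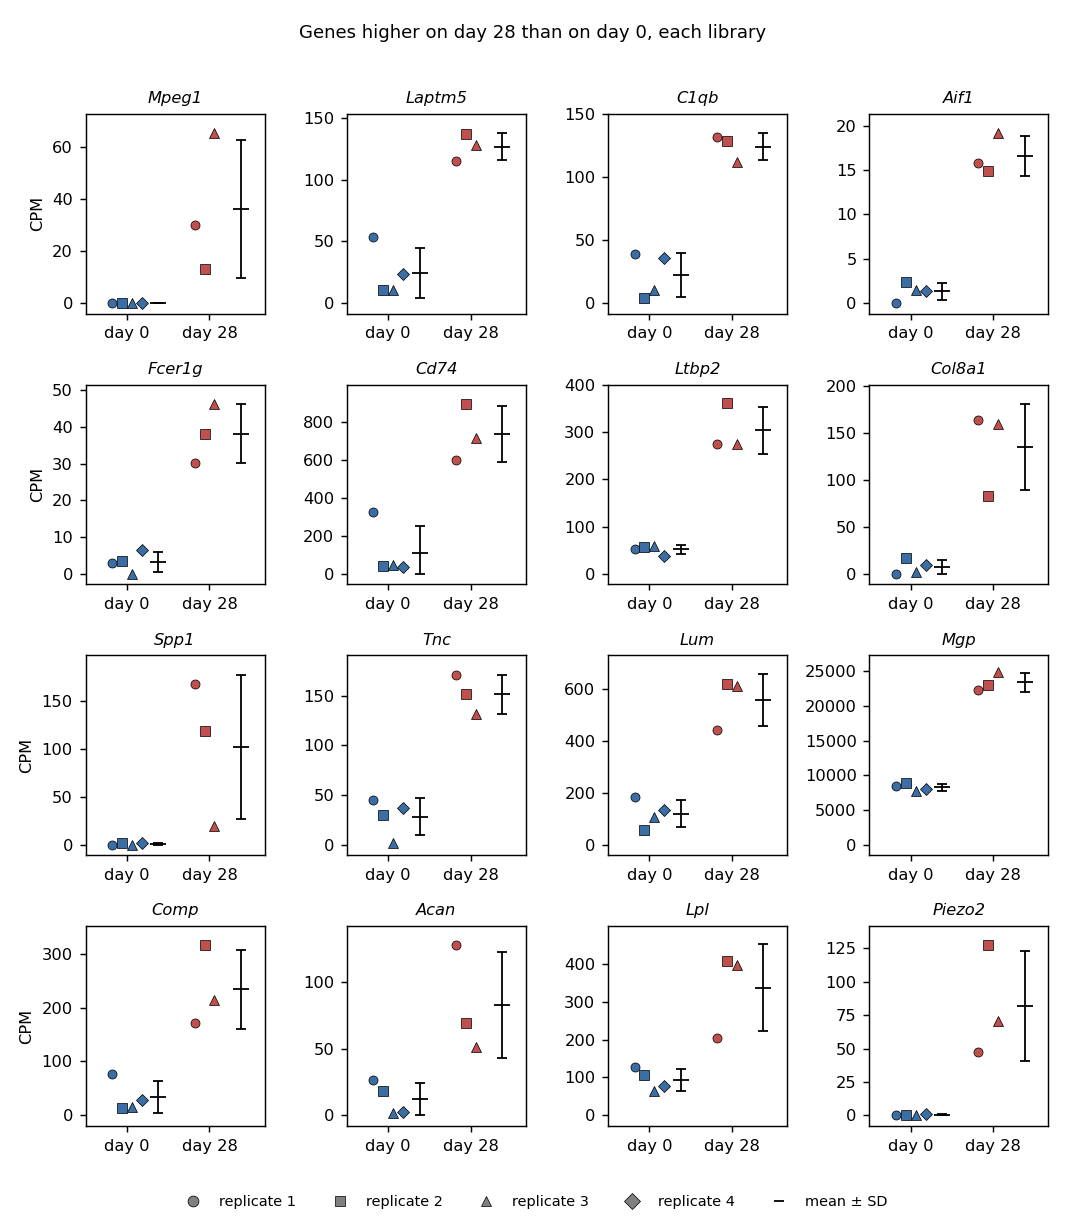
CPM of single genes that were called higher on day 28, by library, for day 0 (4 points) and day 28 (3 points), with the mean and SD of each day and the lower end of an error bar cut at 0. The vertical axis is linear and differs between panels. Mpeg1 lies at 0 in every day 0 library, and its day 28 libraries lie at 30.2, 13.2 and 65.5 CPM.

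Among matrix genes, those that rose did not include the fibrillar collagens or elastin. Ltbp2, a microfibril protein related to the latent TGF-beta binding proteins (chr12:84829986-84923306), had the smallest p-value of all genes. It had 52.1, 56.2, 59.6 and 38.1 CPM on day 0 and 276, 362 and 275 CPM on day 28. Both groups were tight and far apart, with a log2 change of 2.56 (SE 0.27, adjusted p = 9.62e-06). Col8a1, a short-chain collagen of the subendothelium and of injured arteries, stood at 0, 16.7, 1.49 and 9.19 CPM on day 0 and 164, 82.7 and 159.8 CPM on day 28 (log2 change 4.18, SE 0.59, adjusted p = 0.000457). Sdc3, a membrane heparan sulphate proteoglycan, went from 14.9, 68.1, 65.6 and 49.9 CPM to 211, 253 and 238 CPM (log2 change 2.23, SE 0.34, adjusted p = 0.00105). Spp1, which encodes osteopontin, had 0, 1.20, 0 and 1.31 CPM on day 0 and 168, 119 and 19.2 CPM on day 28. Day 0 held 2 counts in all, so that the pooled ratio was 153 (95% counting interval 41.9 to 1275), with an adjusted p of 0.00472. No day 28 library of these 4 genes reached down to day 0, which the rule that named them required and which was so for 86 of the 100 higher genes. Spp1 in day 28 replicate 3 was far below the other 2. The calls of these 4 genes held in all 18 fits that left out 1 library. With limma-voom that of Spp1 was lost (adjusted p = 0.241).

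The other matrix genes that rose had calls nearer to the threshold. Lum, the collagen-binding proteoglycan lumican, had 182, 56.2, 107 and 133 CPM on day 0 and 442, 620.2 and 612 CPM on day 28 (log2 change 2.23, SE 0.46, adjusted p = 0.0133). Tnc, the anti-adhesive glycoprotein tenascin-C, had 44.7, 29.9, 1.49 and 36.7 CPM and 171, 152 and 131 CPM (log2 change 2.41, SE 0.56, adjusted p = 0.034). Neither gene overlapped between the days. Lamb1, a laminin chain of basement membranes, rose from 6.60 ± 6.94 CPM to 40.2 ± 30.5 CPM (mean ± SD, n = 4 and n = 3; adjusted p = 0.031), and the syndecan gene Sdc1 from 27.8 ± 5.93 CPM to 83.3 ± 43.6 CPM (adjusted p = 0.044). In both of these the groups overlapped. The call was lost in some of the 18 fits that left out 1 library, namely in 2 for Lum (0.0523 without day 0 replicate 3), 5 for Tnc (0.077 without day 28 replicate 2), 4 for Lamb1 (0.207 without day 28 replicate 2) and 11 for Sdc1 (0.182 without day 28 replicate 3), where the number in parentheses is the largest adjusted p.

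Genes of cartilage and of mineral control formed a further group. Mgp, which encodes the calcification inhibitor matrix Gla protein (chr6:136849433-136852821), had 8427, 8834, 7718 and 8064 CPM on day 0 and 22302, 22937 and 24874 CPM on day 28. It was among the most abundant transcripts, its libraries agreed closely within each day, and it rose 2.83-fold (95% interval 1.66 to 4.82, adjusted p = 0.044). Comp, the cartilage oligomeric matrix protein, also made by smooth muscle, went from 77.4, 14.3, 14.9 and 27.6 CPM to 172, 316 and 214 CPM (log2 change 2.81, SE 0.61, adjusted p = 0.0208). Acan, the large cartilage proteoglycan aggrecan, had 26.8, 17.9, 1.49 and 2.62 CPM on day 0 and 128, 69.5 and 51.1 CPM on day 28 (log2 change 2.75, SE 0.68, adjusted p = 0.0423). All 3 genes were higher in every day 28 library. Among 18 tested genes of the chondrocyte and mineralization list these 3 rose, none fell and the median log2 change was 1.43. The list summed to 9894 to 11448 CPM on day 0 and 24686 to 26528 CPM on day 28, of which Mgp gave most. Sox9, Ibsp and other markers of chondrocytes or bone had no call by edgeR, and DESeq2 called the cartilage collagen genes Col2a1 and Col10a1 higher. Col2a1 had no count on day 0 and 1.44, 126 and 0 CPM on day 28 (edgeR adjusted p = 0.183). Col10a1 likewise had none on day 0 and 2.87, 41.3 and 1.60 CPM on day 28 (edgeR adjusted p = 0.0975). Both genes were high in day 28 replicate 2 and near 0 in the other libraries. Sox9, the chondrocyte master factor, had 14.5 ± 10.5 and 31.8 ± 9.81 CPM (mean ± SD, n = 4 and n = 3; adjusted p = 0.393), and Ibsp, bone sialoprotein, had 1.44, 67.8 and 19.2 CPM on day 28 (adjusted p = 0.275). When 1 library was left out, the calls were lost in 13 for Mgp (0.116 without day 28 replicate 3), 4 for Comp (0.0792 without day 28 replicate 2) and 11 for Acan (0.116 without day 0 replicate 3), as the number of 18 fits and the largest adjusted p.

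Outside matrix and leukocytes, Piezo2 went from almost no tags to a clear level. It encodes a mechanically gated cation channel known from touch and stretch sensing. It had 0, 0, 0 and 1.31 CPM on day 0, all from 1 count in replicate 4, and 47.4, 127 and 70.3 CPM on day 28. The ratio of the pooled levels was 235 (95% counting interval 41.6 to 9344), with an adjusted p of 6.22e-05. Its mean was 9.23 CPM in the first week after injury, 34.6 CPM in the second and 50.4 CPM on day 21, so that no earlier day had a higher mean than day 28. Pcsk5, a proprotein convertase that cuts integrin chains and growth factors and was named after its values were seen, was also higher, with 58.1, 27.5, 40.2 and 38.1 CPM on day 0 and 97.7, 169 and 187 CPM on day 28 (log2 change 1.88, SE 0.36, adjusted p = 0.00789). Its mean was 21.2 CPM on day 7, below that of day 0. Lpl, the lipase that frees fatty acids from lipoproteins and is made by macrophages and fat cells, rose from 127, 108, 64.1 and 77.4 CPM to 204, 408 and 398 CPM (log2 change 1.84, SE 0.32, adjusted p = 0.00472). It was the 1 member called among 23 tested genes of lipid handling. The calls of Piezo2, Pcsk5 and Lpl held in every alternative run.

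Signalling genes with a residual change were of several kinds. Meis3, a homeobox factor, had 14.9, 19.1, 23.8 and 19.7 CPM on day 0 and 71.8, 154 and 54.3 CPM on day 28 (log2 change 2.25, SE 0.41, adjusted p = 0.00657). Pdgfc, a platelet-derived growth factor that drives mesenchymal cells, went from 31.3, 37.1, 29.8 and 28.9 CPM to 122, 54.6 and 131 CPM (log2 change 1.69, SE 0.33, adjusted p = 0.00834). Frzb, a secreted antagonist of Wnt, rose from 73.0, 122, 55.1 and 53.8 CPM to 224, 329 and 296 CPM (log2 change 1.89, SE 0.44, adjusted p = 0.0345). The day 28 libraries were above day 0 throughout in these 3, which the naming rule required of Meis3. Tsc22d3, which encodes GILZ and is induced by glucocorticoids, had 64.0, 62.2, 58.1 and 43.3 CPM on day 0 and 185, 147 and 184 CPM on day 28 (log2 change 1.59, SE 0.34, adjusted p = 0.02). Dll4, a Notch ligand of endothelial cells and macrophages, had no count on day 0 and 0, 23.2 and 14.4 CPM on day 28 (at least 11.7-fold higher, adjusted p = 0.0408), with overlap. Tubb3, a neuronal tubulin that other cells can make, had 1 count over day 0 and 7.18, 23.2 and 1.60 CPM on day 28, a ratio of 30.5 (95% counting interval 4.88 to 1265) (adjusted p = 0.0489). In these lists Frzb and Dll4 were the 2 members called of 24 tested for Notch and Wnt, and Tubb3 the 1 of 10 for Schwann cells and neurons. The calls lost in fits without 1 library were 1 for Meis3 (0.065 without day 28 replicate 2), 1 for Pdgfc (0.0517 without day 28 replicate 3), 6 for Frzb (0.103 without day 28 replicate 2), 3 for Tsc22d3 (0.0701 without day 0 replicate 4), 10 for Dll4 (0.146 without day 28 replicate 2) and 16 for Tubb3 (0.276 without day 28 replicate 2), given as the number of 18 fits and the largest adjusted p.

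Some higher genes came from part of the day 28 libraries. Cfd, the protease complement factor D, also called adipsin, had no count on day 0 and 93.4, 0 and 102 CPM on day 28. Car3, a carbonic anhydrase abundant in fat, had 0, 0, 0 and 1.31 CPM on day 0 and 124, 0 and 123 CPM on day 28. Both genes were thus absent from day 28 replicate 2 and high in the other 2 libraries. Cfd was at least 65.6-fold higher (adjusted p = 0.0164), and the ratio of Car3 was 249 (95% counting interval 44.0 to 9887) with an adjusted p of 0.00882. They are known as fat cell genes, and with Lpl they were the 3 called of 7 adipocyte markers tested. Over the whole adipocyte list of 14 genes the sum was 519 to 728 CPM on day 0 and 832 to 1301 CPM on day 28, most of it Fabp4 and Lpl, which other cells also make. The defining fat cell gene Adipoq had no count on day 0 and 7.18, 0 and 1.60 CPM on day 28, Plin1 was at 0 in all 3 day 28 libraries, and Lep was at 0 in all 7. The part of fat cells in these values was not tested. F10, coagulation factor X, had no count on day 0 and 0, 31.4 and 27.2 CPM on day 28 (at least 18.3-fold higher, adjusted p = 0.0305). For Cfd and F10 the call was lost in 2 and 5 of the 18 fits that left out 1 library, with adjusted p up to 0.0501 for Cfd without day 0 replicate 4 and 0.0808 for F10 without day 28 replicate 2.

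The lower genes were fewer and of mixed function. Nrtn, which encodes the neurotrophic factor neurturin (chr17:57058324-57064569), had 115, 90.9, 64.1 and 51.2 CPM on day 0 and 0, 0 and 1.60 CPM on day 28. The day 28 value rested on 1 count over the group, and the ratio of day 0 to day 28 was 154 (95% counting interval 27.4 to 6106) with an adjusted p of 0.00383. Means on days 7, 14 and 21 were 2.18, 25.8 and 13.1 CPM. Nrtn was the 1 lower gene whose call held in every alternative run. Copb2, a coat subunit of vesicles between the Golgi apparatus and the endoplasmic reticulum, went from 161, 167, 148 and 172 CPM to 77.6, 52.9 and 30.4 CPM and fell by 1.59 on the log2 scale (SE 0.28, adjusted p = 0.0065). Dhrs3, an enzyme that turns retinaldehyde back to retinol, fell from 87.8, 57.4, 101 and 106 CPM to 21.5, 6.62 and 22.4 CPM (log2 change -2.36, SE 0.44, adjusted p = 0.00721). Orc3, a subunit of the origin recognition complex, had 8.93, 51.4, 41.7 and 17.1 CPM on day 0 and 0, 1.65 and 0 CPM on day 28, a ratio of 59.0 (95% counting interval 10.3 to 2354) (adjusted p = 0.00834). The groups were apart for each of these 4 genes, as for all 38 lower genes, and the calls of these 4 held in all 18 fits that left out 1 library. They were the 4 lower genes of which this was true.

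Several lower genes belong to the muscle cell. Des, the intermediate filament desmin, had 345, 348, 474 and 276 CPM on day 0 and 125, 64.5 and 123 CPM on day 28 (log2 change -1.79, SE 0.43, adjusted p = 0.0403). Itga1, the collagen-binding integrin chain of smooth muscle, fell from 205, 169.8, 243 and 238 CPM to 94.8, 79.4 and 76.7 CPM (log2 change -1.35, SE 0.29, adjusted p = 0.022). In both genes every day 28 library was lower than every day 0 library, as in all 38 lower genes. Hspb6, a small heat shock protein that relaxes smooth muscle, had 159, 240.3, 148 and 328 CPM on day 0 and 84.7, 23.2 and 19.2 CPM on day 28 (log2 change -2.35, SE 0.54, adjusted p = 0.0322). Its day 28 value was highest in replicate 1, the library with high heat shock genes. The calls were lost without 1 library in 6 for Des (0.162 without day 28 replicate 2), 4 for Itga1 (0.0801 without day 28 replicate 2) and 4 for Hspb6 (0.133 without day 28 replicate 2), as the number of 18 fits and the largest adjusted p.

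The contractile genes themselves lay below day 0 without, in the main, a call. Of 29 tested, Des fell and none rose (8 at unadjusted p under 0.05, 3 lower by DESeq2), and the median log2 change was -0.51. For 15 of the 29 all day 28 libraries lay below all day 0 libraries. The sum over the list was 75113 to 82227 CPM on day 0 and 54264 to 63941 CPM on day 28, which is 73.1% of the day 0 mean, and the groups did not overlap. Earlier mean sums were 11614 CPM on day 7 and 32871 CPM on day 21. Acta2, smooth muscle actin, had 16631, 14632, 16217 and 17968 CPM on day 0 and 12633, 8649.5 and 7552 CPM on day 28, with a log2 change of -0.77 (95% interval -1.52 to -0.02, adjusted p = 0.327). Myh11, the smooth muscle myosin heavy chain, had 4181, 3449, 3464 and 3632 CPM against 2342, 2398 and 2296 CPM (log2 change -0.65, 95% interval -1.73 to 0.43, adjusted p = 0.599). Both genes were apart between the days in these 7 libraries. The test takes its spread from all 18 libraries, and in a fit of days 0 and 28 alone Acta2 was called (adjusted p = 0.0337) and Myh11 was not (adjusted p = 0.0702). Calcium, potassium and cyclic nucleotide signalling genes of smooth muscle had 0 calls among 25 tested (5 at unadjusted p under 0.05, 2 by DESeq2) and summed to 77.7% of day 0.

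The remaining lower genes under the naming rule serve general functions. Ndufa11 and Cox5b, nuclear-encoded subunits of respiratory complexes I and IV, fell from 192 ± 62.8 to 65.5 ± 19.4 CPM and from 200.4 ± 39.3 to 75.0 ± 33.8 CPM (mean ± SD, n = 4 and n = 3; adjusted p = 0.0142 and 0.034). Of the 13 respiratory chain genes encoded in the mitochondrion 0 were called (7 at unadjusted p under 0.05, 1 by DESeq2), 6 lay wholly below day 0, and they summed to 31442 to 43589 CPM on day 0 and 18606 to 28240.4 CPM on day 28. Ssr4, a subunit of the translocon-associated complex of the endoplasmic reticulum, fell from 204 ± 40.8 to 69.2 ± 32.4 CPM (adjusted p = 0.0164), and Eif3a, a translation initiation factor subunit, from 138 ± 37.1 to 51.0 ± 18.2 CPM (adjusted p = 0.0311). Gramd4 fell from 14.2 ± 7.38 to 0.479 ± 0.829 CPM (adjusted p = 0.0233) and Pxdc1 from 144 ± 54.5 to 35.3 ± 24.2 CPM (adjusted p = 0.0328). Igfbp4, which binds insulin-like growth factors, fell by 0.97 on the log2 scale (SE 0.24, adjusted p = 0.0453), and Pfkp, a phosphofructokinase of glycolysis, by 1.29 (SE 0.32, adjusted p = 0.0423). The lower genes with no count in any day 28 library were Adamtsl2, a microfibril-associated protein, Ttc21b, a ciliary transport protein, Il33, an alarmin cytokine, and H2-Q6, an MHC class I gene. They were at least 16.4-fold, 11.1-fold, 9.39-fold and 11.4-fold lower than day 0, with adjusted p of 0.034, 0.0369, 0.0394 and 0.0453. Il33 was named after its values were seen. H2-Q6 has near-identical relatives between which tags may be split. Without 1 library the calls were lost in 3 for Ndufa11 (0.0808 without day 28 replicate 2), 4 for Cox5b (0.146 without day 28 replicate 2), 2 for Ssr4 (0.0942 without day 28 replicate 3), 4 for Eif3a (0.119 without day 28 replicate 3), 3 for Gramd4 (0.0857 without day 28 replicate 2), 4 for Pxdc1 (0.115 without day 28 replicate 3), 13 for Igfbp4 (0.129 without day 28 replicate 2), 12 for Pfkp (0.156 without day 28 replicate 3), 6 for Adamtsl2 (0.0947 without day 28 replicate 2), 5 for Ttc21b (0.0986 without day 28 replicate 2), 7 for Il33 (0.111 without day 28 replicate 3) and 16 for H2-Q6 (0.129 without day 28 replicate 2), as the number of 18 fits and the largest adjusted p.

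**Figure D2:**
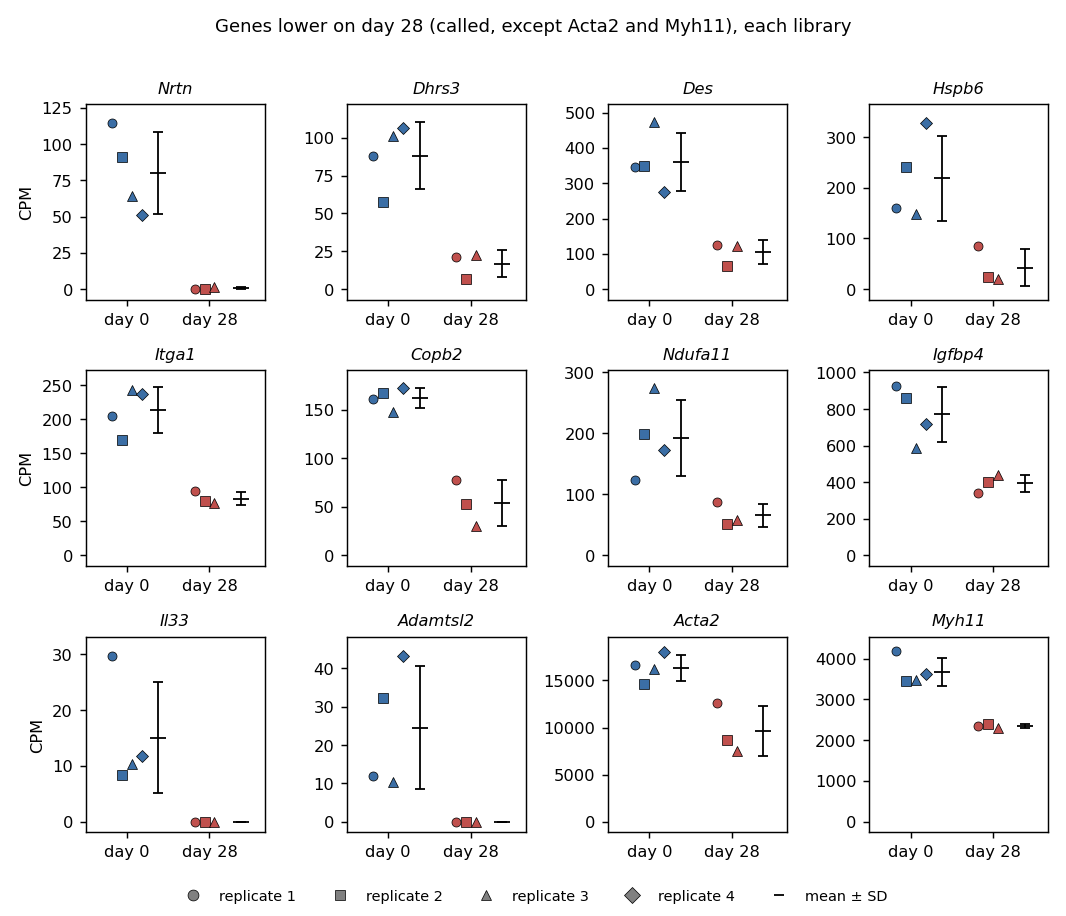
CPM of single genes by library on day 0 (4 points) and day 28 (3 points), with the mean and SD of each day and the lower end of an error bar cut at 0, on linear axes that differ between panels. All genes but Acta2 and Myh11 were called lower on day 28. The day 28 libraries of Acta2 and Myh11 lay below day 0 without a call, and those of Nrtn lie at 0, 0 and 1.60 CPM.

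Exons of some named genes overlap those of another gene on the opposite strand, and the use of strand in the counting is not given in the sources used here. This applies to Ciita (Dexi), Coro1a (Bola2), Lamb1 (Dld), Copb2 (Mrps22), Orc3 (Akirin2 and Rars2), Ndufa11 (Vmac), Ssr4 (Idh3g and Pdzd4), Itga1 (Mocs2), Hspb6 (Lin37 and Proser3), Pfkp (Pitrm1), Per3 (Uts2) and Acta2 (Stambpl1). Tags of either partner may be counted for these genes.

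Of 32 tested genes of fibrillar collagens and their processing 0 were called (8 at unadjusted p under 0.05, 2 by DESeq2), and 15 lay within 2-fold of day 0 by their interval. Col1a1 had 2549.5 ± 937 CPM on day 0 (SD, n = 4) and 2995 ± 630.5 CPM on day 28 (SD, n = 3), with a 95% interval of the log2 change of -0.34 to 0.81. On day 21 its mean was 18299.5 CPM. The list summed to 11285 to 15195 CPM on day 0 and 13037 to 15158 CPM on day 28, after a mean of 47464 CPM on day 21. Eln, which encodes elastin, had 9097, 7185, 7718 and 7294 CPM on day 0 and 7644, 2972 and 5748 CPM on day 28 (95% interval of the log2 change -1.50 to 0.46), after a mean of 39564 CPM on day 21. On day 28 the libraries of these genes overlapped those of day 0.

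Endothelial genes gave 0 calls among 24 tested (4 at unadjusted p under 0.05, 0 by DESeq2), a median log2 change of 0.18 and sums of 1809 to 2834 CPM on day 0 and 2446 to 2793 CPM on day 28. Pecam1, the junctional protein CD31, had 540.3 ± 112 and 669.7 ± 103 CPM (95% interval of the log2 change -0.42 to 1.04). Cdh5, vascular endothelial cadherin, had 68.9 ± 34.8 and 44.0 ± 16.9 CPM (-1.57 to 0.28). The interval of Pecam1 reached past a 2-fold rise and that of Cdh5 past a 2-fold fall, so that neither gene was shown to lie within 2-fold of day 0. Cell cycle genes gave 0 calls among 29 tested (5 at unadjusted p under 0.05, 1 by DESeq2), with sums of 209.9 to 328 CPM on day 0 and 201 to 302 CPM on day 28 after a mean of 1582 CPM on day 7. Mki67, the proliferation antigen Ki-67, had 16.4, 3.59, 20.9 and 0 CPM on day 0 and 7.18, 0 and 0 CPM on day 28. There were also 0 calls among 30 interferon-stimulated genes (3 at unadjusted p under 0.05, 2 by DESeq2), 33 proteases and inhibitors (4 and 2) and 22 immediate early genes (4 and 1). Of all 10312 genes tested, 1521 had an unadjusted p under 0.05 and DESeq2 called 366.

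**Figure D3:**
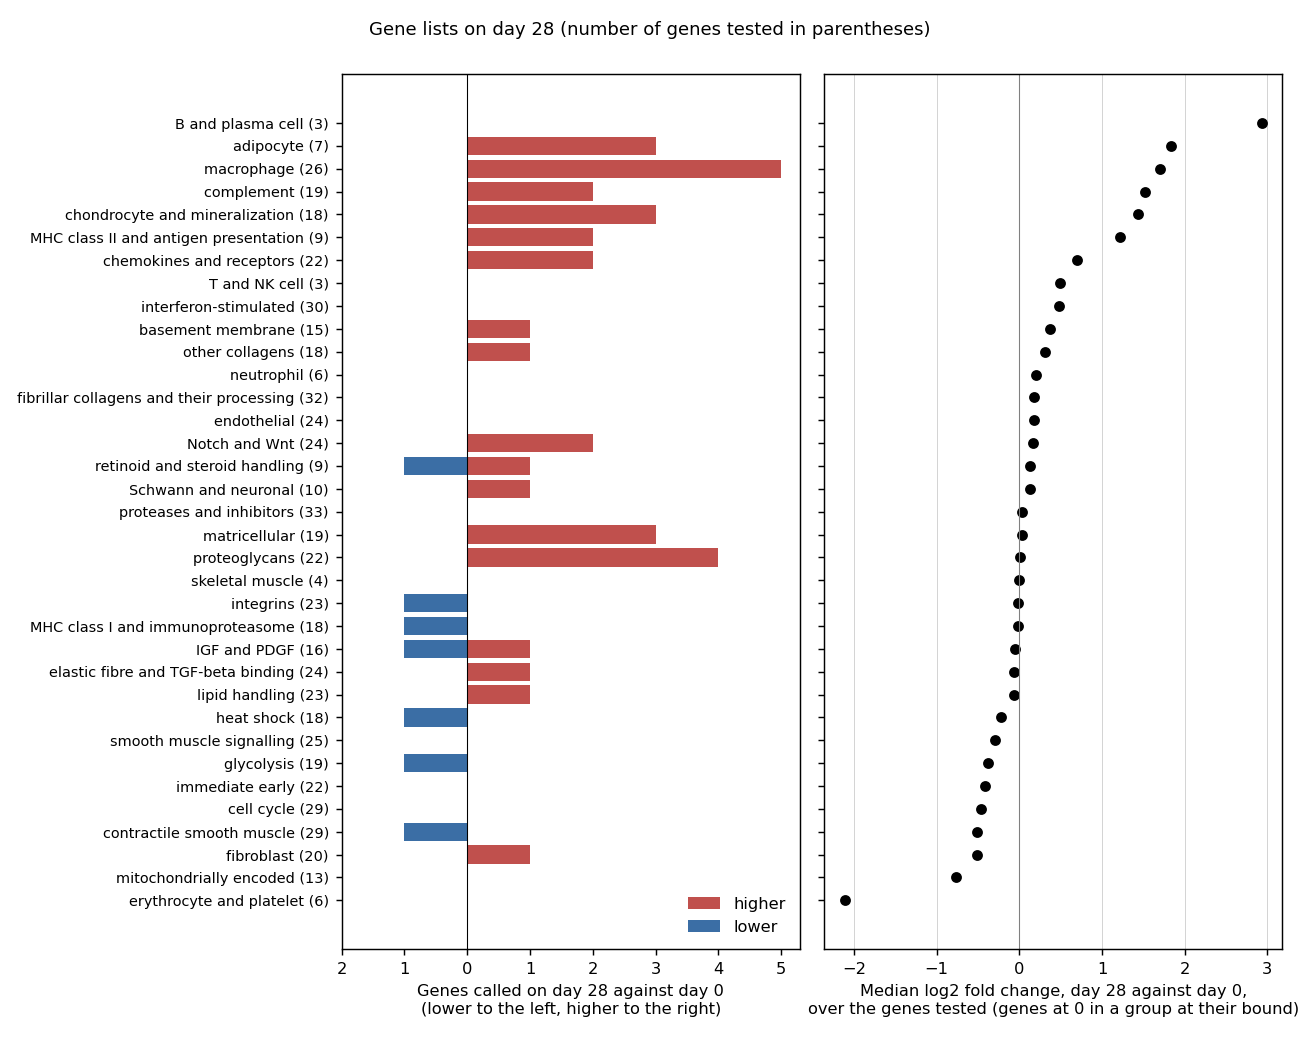
Median log2 fold change of day 28 over day 0 for the tested genes of each list, with genes at 0 counts in a group set at their bound, and the number of members tested and called. The median of all genes tested lies at -0.01. The macrophage list lies at 1.70 and the contractile list at -0.51. Lists with few tested members rest on few genes.

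The genes that were still high had followed different courses. The highest mean fell on day 7 for 48 of the 100 higher genes, on day 28 for 26, on day 21 for 19 and on day 14 for 7. The day 28 mean was over 50% of the highest earlier mean for 58 of them and under 20% for 11, with a median of 58.4%. Mpeg1 stood at 14.0% of its highest earlier mean, Laptm5 at 17.3% and Spp1 at 6.63%. Cd74 was at 59.2%, Mgp at 92.7% and Comp at 96.9%. Of these 6, Spp1, Mpeg1 and Laptm5 had come down furthest, while Mgp and Comp were close to their peak. Comp on day 7 had a mean of 35.5 CPM, near its day 0 mean of 33.6 CPM. The lowest mean of the 38 lower genes fell on day 28 for 27, on day 7 for 10 and on day 21 for 1. The genes were chosen by a difference of day 28 from day 0, which favours an extreme mean on day 28. The day 0 libraries entered that choice as well, and the counts describe means without a test.

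**Figure D4:**
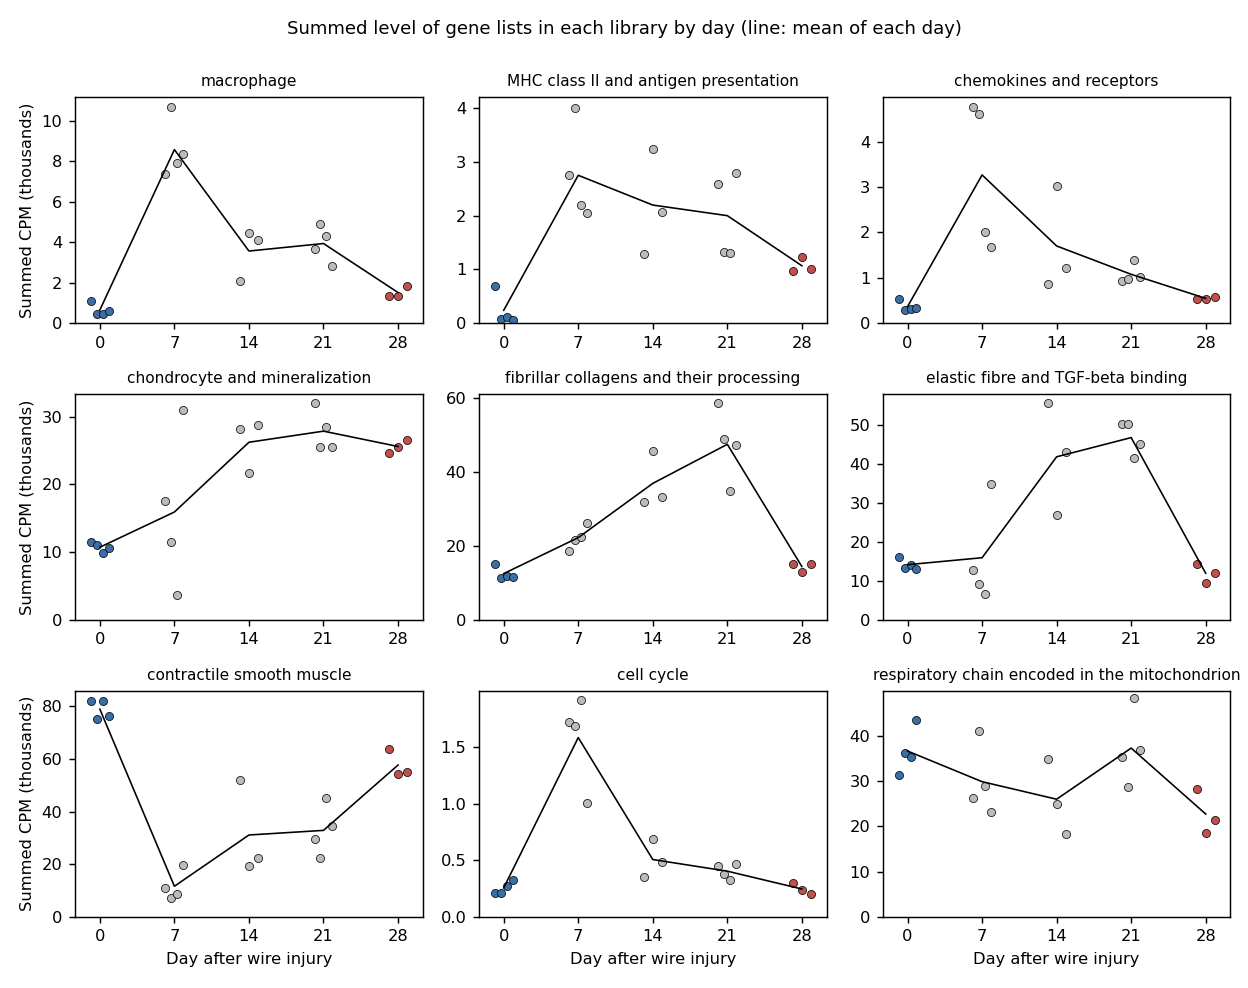
Summed CPM of gene lists by library on days 0, 7, 14, 21 and 28 (4, 4, 3, 4 and 3 points), with the line through the means. The macrophage sum falls from a mean of 8586 CPM on day 7 to 1506 CPM on day 28 and stays above 640.1 CPM of day 0, and the contractile sum comes back to 57719 CPM against 78982 CPM.

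Genes of the circadian clock appeared in both directions, and their list was drawn up after 3 of them had been seen among the calls. In the clock, the activators ARNTL and CLOCK drive the genes of their own repressors and of the output factors DBP, TEF and HLF, so that activators and outputs peak at opposite times of the day. Per3, a period gene (chr4:151081373-151129140), had 28.3, 10.8, 10.4 and 40.7 CPM on day 0 and 17.2, 288 and 211 CPM on day 28. Tef had 68.5, 124, 183 and 142 CPM on day 0 and 146, 498 and 546 CPM on day 28. Arntl had 68.5, 7.17, 25.3 and 3.94 CPM on day 0 and 1.44, 0 and 0 CPM on day 28. Per3 and Tef were high in day 28 replicates 2 and 3 only, while replicate 1 lay among the day 0 libraries. The log2 changes were 2.92 for Per3 (SE 0.66, adjusted p = 0.029) and 1.61 for Tef (SE 0.41, adjusted p = 0.0475). Arntl was lower by a ratio of 47.2 (95% counting interval 8.20 to 1889), with an adjusted p of 0.0475. Without 1 library these calls were lost in 4 for Per3 (0.146 without day 28 replicate 2), 14 for Tef (0.196 without day 28 replicate 3) and 12 for Arntl (0.157 without day 28 replicate 2), as the number of 18 fits and the largest adjusted p. Of 16 clock genes tested 2 rose and 1 fell. Dbp had 47.6, 50.2, 106 and 155 CPM on day 0 and 151, 445 and 329 CPM on day 28 (adjusted p = 0.0717), again with replicate 1 lowest. Nr1d1, a repressor of Arntl, had 150.4, 233, 171 and 218 CPM and 106, 16.5 and 78.3 CPM (adjusted p = 0.084). Per2 had 0, 29.9, 20.9 and 19.7 CPM on day 0 and 35.9, 92.6 and 73.5 CPM on day 28 (adjusted p = 0.194). The time of day at which vessels were taken is not given in the sources used here, and its part in these values was not tested.

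The window of 250 bases upstream of Per3 is shown because DBP, TEF and HLF bind the D-box, TTATGTAA, marked here in capitals (RefSeq, GRCm38.p6, chr4:151044666-151044915, minus strand, printed on the strand of the gene).

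Per3: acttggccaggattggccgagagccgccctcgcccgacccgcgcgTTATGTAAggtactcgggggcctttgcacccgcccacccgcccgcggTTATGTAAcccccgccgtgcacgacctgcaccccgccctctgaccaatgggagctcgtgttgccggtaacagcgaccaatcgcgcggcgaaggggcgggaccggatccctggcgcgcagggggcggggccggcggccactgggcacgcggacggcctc

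It held the motif 2 times, beginning 205 and 158 bases upstream of the start. Of 8168 genes tested with such a window, 0.453% held these letters on either strand, and of 66 genes higher on day 28 it was Per3 alone.

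**Figure D5:**
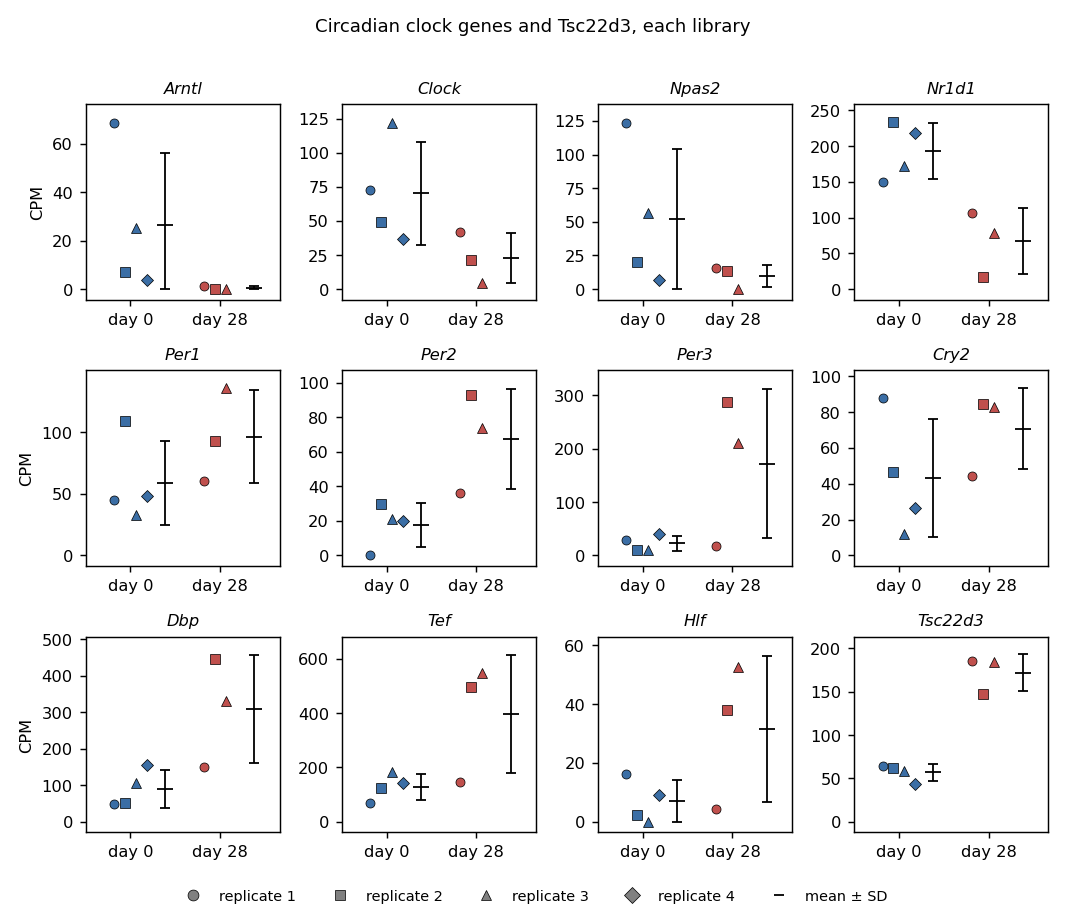
CPM of clock genes and of Tsc22d3 by library on day 0 and day 28, with the mean and SD of each day and the lower end of an error bar cut at 0. Per3, Tef and Dbp are high in day 28 replicates 2 and 3, and replicate 1 lies near or among the day 0 libraries.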

How the data were processed

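MACE libraries (18) were made from carotid tissue cut out by laser. Duplicates were collapsed by the authors with molecular identifiers, low-quality and adapter sequence was cropped, and Salmon 1.9.0 was run against the mm39 transcriptome. Estimated counts (expected counts) were deposited for each gene in whole numbers. The annotation release and the use of strand are not given in the sources used here. A second deposited table, normalised by the authors with DESeq2 1.36.0, was not used, since its values hold a further factor per gene.

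The labels' day gave the groups, and depth was 440675 to 878310 counts. In R 4.3.3, edgeR 4.0.16 (filterByExpr by day, TMM, quasi-likelihood test) was fitted once to all 18 libraries, and the contrast of day 28 over day 0 was adjusted by Benjamini-Hochberg over 10312 genes, with calls at 0.05. CPM are scaled by TMM. The SE is the size of the log2 fold change over the square root of F, and intervals are at 95%. Where a group had no count, the fold is a lower bound against 3 counts over the group. With 1 to 3 counts, the pooled ratio has an exact interval for counting error only. Positions are from GENCODE on GRCm39, matched by symbol for 33100 genes.

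The steps were tested on simulated data. Alternatives used DESeq2 1.42.0 and limma 3.58.1 (voom).

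The naming rule took 15 called genes per direction with the smallest p whose groups do not overlap, up to 4 called members of each of 35 lists, the first 2 tested members of lists with under 2 calls, and the 5 called genes with the smallest p whose groups overlap. Predicted genes are not described, some genes that the rule took are not reported here, and the text says which genes were named outside this rule. The members and lists were chosen with earlier results of these data known. Alternatives changed the tool, size factors, low-count filter, threshold, libraries in the fit, depth and blocks, and left out each library in turn.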

Additional observations from a re-analysis of the deposited data

Results flagged for a closer look

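Of 65 day 0 values checked (the sums of the 35 lists and the levels of the 30 genes named for the smallest p), 3 had 1 library far from the other 3 by Dixon's criterion for 4 samples. The day 0 sum of the MHC class II and antigen presentation list was 692 CPM in replicate 1 and 59.1 to 118 CPM in the others. The sum of fibrillar collagens and their processing was 15195 CPM in replicate 1 and 11285 to 11924 CPM in the others. Piezo2 stood at 1.31 CPM in day 0 replicate 4, from 1 count, and at 0 in the others. At the 95% level of this criterion some values pass by chance alone. Without day 0 replicate 1 the call of Cd74 held. Groups of 3, as on day 28, were not checked.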

How the results depend on the processing

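The number of genes changed on day 28, with those higher and lower, was 138 (100 and 38). It was 366 (227 and 139) with DESeq2, 363 (231 and 132) with no filter on low counts, 32 (21 and 11) with only days 0 and 28 in the fit, 76 (42 higher) with limma-voom, 52 (31 and 21) with limma-voom and the mouse number as a block, and 46 (40 and 6) when a 1.5-fold change was the null. At adjusted p under 0.01 it was 37 (32 and 5) and under 0.10 it was 258 (175 and 83). A stricter filter, 30 counts in 3 libraries, left 23 lower genes. Over the 18 fits that each left out 1 library the number ranged from 63 to 480, of higher genes from 49 to 192 and of lower genes from 9 to 288, and genes within 2-fold of day 0 from 946 to 1643. The extremes were without day 28 replicate 1 (480) and without day 0 replicate 3 or day 28 replicate 2 (63). RLE size factors and libraries thinned to the shallowest left these counts within 1.5 times. Why the counts moved was not tested.

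Replicate numbers did not pair the libraries: residuals of the same number on other days had a median correlation of -0.01 over 33 pairs, and the 3 pairs of days 0 and 28 lay between -0.05 and 0.01. With the replicate number as a block 72 genes were changed (54 higher, 18 lower), and 39 of 55 genes that the naming rule took with a call kept it. With only days 0 and 28 in the fit, 17 of these 55 kept their call. Of the 138 genes, 31 were called in all 18 fits that left out 1 library and 9 in every alternative, which were Cd74, Gm10040, Lpl, Ltbp2, Mpeg1, Nrtn, Pcsk5, Piezo2 and Sdc3. None of these 55 genes changed its direction in any alternative. The shallow depth limits what could be called, since genes with under a few counts per library give wide intervals.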

Other observations

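Further lists had few or no calls. Among 18 tested genes of MHC class I and the immunoproteasome H2-Q6 fell and none rose, and the sums were 2097 to 2287 CPM on day 0 and 2051 to 2347 CPM on day 28. Of 19 complement genes C1qb and Cfd rose, with a median log2 change of 1.53. Of 18 other collagens Col8a1 rose, of 24 elastic fibre and TGF-beta binding genes Ltbp2, of 15 basement membrane genes Lamb1, of 22 proteoglycan genes Lum, Acan, Sdc1 and Sdc3, and of 19 matricellular genes Spp1, Tnc and Comp, with none lower in any of these lists. Among 20 fibroblast genes Lum alone was called, and it rose against the direction of most members. Of the 20, 6 had a positive log2 change, the median was -0.52, and 5 lay wholly below day 0 against 1 wholly above. DESeq2 called 1 higher and 2 lower. The fibroblast list summed to 3902 to 5338 CPM on day 0 and 3368 to 4057 CPM on day 28, with overlap. Integrins had 1 call of 23, Itga1, and their sum was 70.9% of day 0. Pdgfc rose and Igfbp4 fell among 16 IGF and PDGF genes, and Tsc22d3 rose and Dhrs3 fell among 9 of retinoid and steroid handling. Hspb6 fell among 18 heat shock genes, and Pfkp among 19 of glycolysis.

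Skeletal muscle genes, which would mark tissue around the vessel, had 0 calls among 4 tested (1 at unadjusted p under 0.05, 0 by DESeq2) and sums of 31.5 to 59.6 CPM on day 0 and 9.92 to 33.6 CPM on day 28. Erythrocyte and platelet genes had 0 calls among 6 tested (3 at unadjusted p under 0.05, 0 by DESeq2), with a median log2 change of -2.11 and sums of 98.3 to 465 CPM on day 0 and 99.2 to 187 CPM on day 28. Haemoglobin genes share near-identical copies.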
